A study of Mus musculus with 4 samples.

Results

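Glycolysis and the response to low oxygen were followed through 38 genes, chosen as a list of symbols with earlier results of these data known. They comprise 3 transporters of glucose or lactate, 16 glycolytic enzymes, and 4 genes for lactate dehydrogenase subunits and pyruvate dehydrogenase kinases. A further 5 genes, called Hif regulators here, encode subunits of the hypoxia-inducible factors (Hif) or their prolyl hydroxylases. Another 10 are listed as Hif targets, although genes of other roles, such as *Ldha* and *Pdk1*, are targets too. A value was obtained for 35 of the 38 genes, out of 18194 genes in all: 3 transporters, 14 glycolytic enzymes, all 4 dehydrogenase and kinase genes, 5 Hif regulators and 9 Hif targets. *Gpi1*, *Eno1* and *Bnip3l* had no probe set assigned to them alone and were not analysed here. The 3 probe sets of *Bnip3l* are shared with the pseudogene *Bnip3l-ps*.

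RNA was hybridised to 4 mouse genome arrays of 1 colour, with 1 array per group. *Hand2*NC heads at E12.5 (E, embryonic day) were set against wild-type heads, and *Hand2*NC whole bodies at E11.5 against wild-type whole bodies. *Hand2*NC embryos were *Hand2* CAT/+; *Wnt1-Cre*, in which *Wnt1-Cre* removes a lox-flanked CAT cassette and lets the CAG promoter drive *Hand2* in the neural crest lineage, so that only part of each sample carried the active transgene. All embryos were of mixed C57BL/6J x ICR background, the wild-type embryos were littermates, and RNA was pooled before hybridisation. No difference has a replicate check for this reason, and no p-value is given. In RNA of whole heads or bodies, fewer cells of a type and less RNA per cell cannot be told apart. Stage and tissue changed together, and E12.5 cannot be told apart from head, or E11.5 from whole body. The labels name whole body for the earlier stage, whereas a legend of the study names heads, and the labels were followed here.

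Glycolysis breaks glucose down to pyruvate in the cytoplasm, and several of its steps are served by isoenzymes that different tissues favour. Hif proteins consist of an oxygen-sensitive alpha subunit, such as *Hif1a* or *Epas1*, and the stable partner *Arnt*. When oxygen is plentiful, Egln prolyl hydroxylases mark the alpha subunits for destruction, and when it is scarce the pair binds DNA and switches on genes of glucose uptake, glycolysis and vessel growth. The embryo at mid-gestation grows in low oxygen, and mice that lack *Hif1a* die with vascular and neural defects.

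The Hif pair binds a short core motif, and the promoters of the list were searched for one form of it, ACGTG, on both strands (CACGT on the strand printed; both overlap in CACGTG). The window was the 250 bases before a start site in RefSeq, build GRCm38.p6. Promoter entries matched 32 of the 35 genes with a value, and *Slc2a3*, *Epas1* and *Ndrg1* were not among them. At least 1 match stood in 20 of the 32 (62.5%), against 20% of 17492 protein-coding genes. By role, matches were present for 2 of 2 transporters, 6 of 14 glycolytic enzymes, 2 of 4 dehydrogenase and kinase genes, 3 of 4 Hif regulators and 7 of 8 Hif targets. A match describes letters in a window and is not a measured binding site. Of the 4 promoters below, *Bnip3* had the lowest mean ratio between stages among Hif targets that passed the signal filter described further on, and the other 3 were chosen after their values were seen. *Ankrd37* had the lowest genotype ratio of the genes above that filter, *Ldha* was higher in *Hand2*NC at E12.5 and lower at E11.5, and *Aldoc* differed most between stages and held no match. Capitals mark ACGTG or CACGT.
Bnip3, chr7:138909507-138909756, minus strand: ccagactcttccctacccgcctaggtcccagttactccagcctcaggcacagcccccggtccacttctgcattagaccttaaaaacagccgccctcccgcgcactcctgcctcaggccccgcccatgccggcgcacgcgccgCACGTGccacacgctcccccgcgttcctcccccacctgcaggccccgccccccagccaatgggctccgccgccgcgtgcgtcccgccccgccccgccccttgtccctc
Ankrd37, chr8:45999851-46000100, minus strand: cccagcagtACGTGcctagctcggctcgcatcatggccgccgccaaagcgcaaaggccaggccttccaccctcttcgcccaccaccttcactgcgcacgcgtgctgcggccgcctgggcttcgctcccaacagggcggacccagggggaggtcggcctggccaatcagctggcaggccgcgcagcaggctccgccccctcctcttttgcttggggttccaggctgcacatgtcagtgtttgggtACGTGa
Ldha, chr7:46845554-46845803, plus strand: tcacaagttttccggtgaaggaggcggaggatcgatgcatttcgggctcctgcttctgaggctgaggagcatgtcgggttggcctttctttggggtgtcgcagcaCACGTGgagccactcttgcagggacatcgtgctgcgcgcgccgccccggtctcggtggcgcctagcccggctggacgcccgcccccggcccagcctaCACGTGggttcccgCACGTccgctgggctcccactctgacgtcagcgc
Aldoc, chr11:78322823-78323072, plus strand: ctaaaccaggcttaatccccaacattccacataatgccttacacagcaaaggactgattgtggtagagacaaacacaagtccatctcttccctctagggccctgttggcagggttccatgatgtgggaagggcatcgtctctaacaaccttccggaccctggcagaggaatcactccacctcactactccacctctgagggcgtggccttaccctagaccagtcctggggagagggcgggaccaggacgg

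Counting from the base next to the start site, the *Bnip3* motif began 108 bases upstream and read CACGTG, which counts on both strands. The *Ankrd37* motifs began 241 and 6 bases upstream. The *Ldha* promoter held 5 matches, from 145 to 34 bases upstream, of which 4 paired up in a pair of CACGTG stretches. A second *Ldha* window in RefSeq, from another start site, held no match. The second *Aldoc* window held none either. The 18 genes above the filter with a match had a median log2 ratio of *Hand2*NC over wild-type of 0.09 at E12.5 and -0.11 at E11.5. Those without a match had medians of -0.01 over 11 genes at E12.5 and -0.05 over 10 genes at E11.5.

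Array medians lay between 97.2 and 106 signal units after scaling to a common trimmed mean of 500, and the 3′ to 5′ signal ratio of *Gapdh* lay between 0.804 and 0.890. *Hand2* itself was checked first. One probe set gave 706 in *Hand2*NC against 33.4 in wild-type at E12.5 and 314 against 67.1 at E11.5. Another gave 839 against 592 at E12.5 and 1244 against 1214 at E11.5, and the third probe set lay below 8 on every array. The summed signal of *Kdm5d*, *Eif2s3y* and *Uty*, which lie on the Y chromosome, was 25.1 in *Hand2*NC against 2035 in wild-type at E12.5, and 1864 against 1734 at E11.5. The 2 genotypes thus differed in the Y-linked signal at E12.5, as did the 2 stages in *Hand2*NC (25.1 against 1864). The sex of the pooled embryos is not labelled, and the part of this difference in the results was not tested. *Pgk1* and *Pdk3* lie on the X chromosome.

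At E12.5, *Hand2*NC and wild-type heads had nearly the same signals for glycolysis and hypoxia response genes. Of the 35 genes, 32 passed a filter that asked the brighter array to reach its own median. None of the 32 differed by 2-fold, where 0.398% of 11815 genes did. The muscle enolase *Eno3* and the prolyl hydroxylase *Egln3* were higher in *Hand2*NC past a smaller cutoff, a log2 ratio of 0.32, and no gene of the list was lower by that much. Over all genes above the filter, 5.1% were higher and 6.64% lower past the smaller cutoff. The median log2 ratio was 0.06, with 19 genes higher and 13 lower. Over all genes the median was 0.00, with 50.9% higher and 49.1% lower.

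Transporters stood close to equality in the probe sets used. *Slc2a1*, the main glucose transporter of embryonic tissues, had 4384 in *Hand2*NC heads against 4276 in wild-type heads. Its other probe sets gave log2 ratios of -0.10 and 0.01. *Slc2a3*, the glucose transporter typical of neurons, had 2369 against 2443 (log2 -0.04), while its second bright probe set was higher in *Hand2*NC, with 1092 against 892 (log2 0.29). The lactate exporter *Slc16a3* lay below the filter, with 66.0 against 82.0.

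Glycolytic enzymes had a median of 0.05, with 8 of 14 higher. *Eno3*, the enolase of muscle, gave 518 in *Hand2*NC heads against 397 in wild-type heads, a log2 ratio of 0.39. The summed signal of 10 skeletal muscle markers was 7620 against 7619 on the same arrays, with 6 markers higher and 4 lower. The markers did not move together, since *Myf5* (log2 1.13) and *Chrng* (log2 0.98) were higher in *Hand2*NC and *Ttn* (log2 -0.41) and *Myh3* (log2 -0.29) lower. The part of muscle in the *Eno3* value was not tested. Hexokinase 1, which phosphorylates glucose on entry, had the lowest ratio above the filter, with *Hk1* at 875 in *Hand2*NC against 1073 in wild-type (log2 -0.29). Its second probe set lay below the filter at 54.6 against 41.9, and the mean over both sets was 0.04. *Hk2*, the other hexokinase on the list, had 957 against 893 and a log2 ratio of 0.10. *Aldoc*, the aldolase of brain, had 1242 against 1371 (log2 -0.14), and *Eno2*, the enolase of neurons, 142 against 146 (log2 -0.04). All 10 neuron markers were lower in *Hand2*NC heads too, by a median of -0.15 and a summed signal of 46632 against 51710.1, and the part of this in the values of *Aldoc* and *Eno2* was not tested. *Gapdh*, which oxidises glyceraldehyde 3-phosphate and is often used as a standard, had 18524 against 17975.

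The local spread of a gene is taken here as the robust standard deviation of the log2 ratio over the 500 genes nearest to it in mean signal, which holds measurement error and real differences together. By this measure 8 genes of the list lay above their spread at E12.5 (*Aldoa*, *Tpi1*, *Pgk1*, *Eno3*, *Ldha*, *Pdk3*, *Egln3* and *Bnip3*) and 2 below it (*Hk1* and *Ndrg1*). Over all genes, 16.9% lay above it and 16.3% below it. All 4 dehydrogenase and kinase genes were higher, with a median of 0.15. *Ldha*, which turns pyruvate into lactate, had 10146 in *Hand2*NC against 8919 in wild-type (log2 0.19, local spread 0.08). *Pdk3*, a kinase that holds back pyruvate dehydrogenase, had 757 against 655 (log2 0.21, local spread 0.15). *Pgk1*, the first ATP-forming step of glycolysis, had 11286 against 10186 (log2 0.15, local spread 0.08). Its other probe sets, nearly as bright, disagreed with each other, with 10261 against 9338 (log2 0.14) and 8565 against 9790.0 (log2 -0.19), so that the higher signal held in 2 of 3 sets. *Pgk1* and *Pdk3* are the X-linked genes of the list, and both were read on the arrays that differed in Y-linked signal.

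The Hif regulators had a median of 0.06 at E12.5, and of -0.21 with the mean over all probe sets of a gene, including sets below the filter. *Hif1a*, the main alpha subunit, had 7703 in *Hand2*NC heads against 7336 in wild-type heads, and *Epas1*, the alpha subunit best known from endothelium, had 1278 against 1319.9. *Arnt*, their shared partner, had 681 against 727, and 669.7 against 598 in another probe set above the filter. *Egln1*, the principal oxygen sensor, had 1578 against 1509, while its second probe set went the other way, with 356 against 520.3. *Egln3* had 325 against 253, a log2 ratio of 0.36 with a local spread of 0.24, and its dimmer second set gave 26.8 against 58.9, below the filter. The 7 Hif targets above the filter split into 3 higher and 4 lower, with a median of -0.00. *Vegfa*, the growth factor of vessels, had 497 against 442, a log2 ratio of 0.17 within its local spread of 0.20. *Ndrg1*, a stress-responsive gene induced by low oxygen, had 443 against 528 (log2 -0.25), while its other probe set above the filter gave 327 against 321 (log2 0.03). *Bnip3*, a mitochondrial protein of mitophagy, had 2119 against 1895 (log2 0.16). The remaining targets above the filter were *Ddit4* (log2 -0.04), *Ankrd37* (-0.11), *P4ha1* (0.11) and *P4ha2* (-0.00). *Car9* and *Adm* lay below the filter at both stages.

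**Figure D1:**
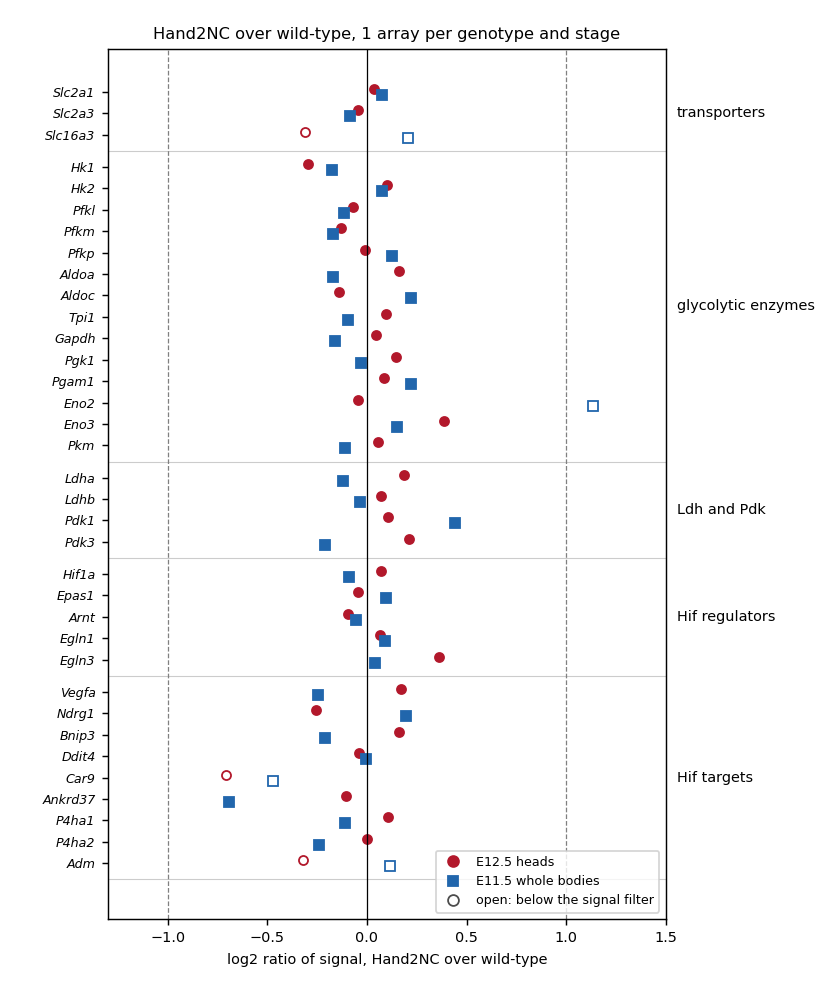
The log2 ratio of signal, *Hand2*NC over wild-type, for the 35 genes with a value, grouped by role, with E12.5 heads as red circles and E11.5 whole bodies as blue squares. Open symbols lie below the signal filter, and dashed lines mark 2-fold. Every filled symbol lies inside the 2-fold lines, and the one farthest from 0 is *Ankrd37* at E11.5, at -0.69.

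At E11.5, *Hand2*NC and wild-type whole bodies were again close, with the balance on the lower side. Of 31 genes above the filter, none differed by 2-fold, where 0.446% of 11884 genes did. Past the smaller cutoff *Pdk1* was higher and *Ankrd37* lower, as were 6.61% and 5.75% of all genes in these directions. The median log2 ratio was -0.09, with 11 genes higher and 20 lower, beside a median of -0.01 over all genes, of which 47.2% were higher and 52.8% lower. Below their local spread lay 10 genes (*Hk1*, *Pfkm*, *Aldoa*, *Gapdh*, *Ldha*, *Pdk3*, *Vegfa*, *Bnip3*, *Ankrd37* and *P4ha2*) and above it 3 (*Pdk1*, *Pgam1* and *Aldoc*). Over all genes these shares were 17.4% below and 16.1% above.

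Hif targets had the lowest median of the roles, -0.21, with 6 of the 7 above the filter lower in *Hand2*NC bodies. Of these 6, *Ddit4* was nearly equal, with 2707 against 2715 (log2 -0.005). *Ankrd37*, an ankyrin repeat protein induced by Hif, had 242 in *Hand2*NC against 390.1 in wild-type, a log2 ratio of -0.69 with a local spread of 0.24. Its single probe set gave 278 against 299.7 at E12.5. The wild-type array at E11.5 was the highest of the 4 for this gene, and the *Hand2*NC array at E11.5 the lowest. *Vegfa* had 434 against 515 (log2 -0.25), *P4ha2*, a subunit of collagen prolyl 4-hydroxylase, 413 against 488 (log2 -0.24), and *Bnip3* 2231 against 2584 (log2 -0.21). *Ndrg1* was the higher one of the 7, with 453 against 395 (log2 0.20). Its other probe sets above the filter pointed lower, with 363 against 382 and 90.7 against 135.

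Hif regulators themselves had a median of 0.04 at E11.5, and none of the 5 passed its local spread. *Hif1a* had 7379 in *Hand2*NC bodies against 7859 in wild-type bodies, and a second probe set of the gene had 1439 against 1234. *Epas1* had 821 against 768, *Arnt* 1027 against 1067, *Egln1* 1343 against 1261, and *Egln3* 258 against 251. The ratios of the 5 probe sets used lay between -0.09 and 0.10 on the log2 scale, while the second *Hif1a* set, at 0.22, pointed the other way from the first.

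Glycolytic enzymes had a median of -0.09 at E11.5, with 8 of 13 lower in *Hand2*NC bodies, and of 0.076 with the mean over all probe sets of a gene. *Gapdh* had 17411 against 19490 in wild-type (log2 -0.16), and its other 2 probe sets gave -0.13 and -0.11. *Aldoa*, the main aldolase of most embryonic tissues, had 6032 against 6798 (log2 -0.17). *Pgam1*, a phosphoglycerate mutase, ran the other way, with 5710.0 against 4892 (log2 0.22, local spread 0.11). *Aldoc* had 335 against 287 (log2 0.22). *Eno2* lay below the filter, with 86.6 against 39.4. *Slc2a1* had 4394 against 4170 (log2 0.08). Another set of this gene went the other way, with 1046 against 1196 (log2 -0.19), and a further one gave 0.04.

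Among the dehydrogenase and kinase genes, *Pdk1*, the kinase that Hif1 is known to induce, had 1344 in *Hand2*NC bodies against 989 in wild-type bodies, a log2 ratio of 0.44. Its other probe sets above the filter gave 0.02 (562 against 552) and 0.15 (647 against 581), so that the call at the smaller cutoff rests on 1 of 3 sets. *Ldha* had 10656 against 11586 (log2 -0.12, local spread 0.11). *Pdk3* had 748 against 865 (log2 -0.21), and *Ldhb*, the other dehydrogenase subunit, 4314 against 4418 (log2 -0.03).

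Set side by side, the genotype ratios at E12.5 and E11.5, which share no array, had opposite signs for 16 of 31 genes above the filter at both stages (51.6%), beside 52.4% of 11450 genes. Of the 31 genes, 12 (38.7%) were higher in *Hand2*NC at E12.5 and lower at E11.5, as were 28.1% of all genes. They were *Aldoa*, *Tpi1*, *Gapdh*, *Pgk1*, *Pkm*, *Ldha*, *Ldhb*, *Pdk3*, *Hif1a*, *Vegfa*, *Bnip3* and *P4ha1*. The reverse held for 4 genes, *Pfkp*, *Aldoc*, *Epas1* and *Ndrg1*, and for 24.3% of all genes. A further 7 were higher at both stages (*Slc2a1*, *Hk2*, *Pgam1*, *Eno3*, *Pdk1*, *Egln1* and *Egln3*), beside 23.1%, and 8 lower at both (*Slc2a3*, *Hk1*, *Pfkl*, *Pfkm*, *Arnt*, *Ddit4*, *Ankrd37* and *P4ha2*), beside 24.5%. These signs hold for the probe sets used. Other sets above the filter were higher at both stages for *Pfkl* (0.31 at E12.5 and 0.09 at E11.5) and *Arnt* (0.16 and 0.04). Another *Egln1* set was lower at both (-0.55 and -0.08), and no other *Slc2a1* set was higher at both. Among genes whose mean log2 signal over the 4 arrays reached that of a signal of 441, the first quartile of the list in wild-type bodies at E11.5, the order of higher at E12.5 and lower at E11.5 held for 12 of 29 (41.4%), beside 30.8%. The pattern of 12 genes ran through the enzymes (5 of 13), the dehydrogenase and kinase genes (3 of 4), the regulators (1 of 5) and the targets (3 of 7).

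With both ratios asked to pass the local spread, *Aldoa*, *Ldha*, *Pdk3* and *Bnip3* remained (12.9%), beside 3.54% of all genes. *Aldoa* had log2 ratios of 0.16 at E12.5 and -0.17 at E11.5. Of its 5 probe sets, 4 had this order of signs, and 1 had the opposite, with -0.15 and 0.20. *Ldha* had 0.19 and -0.12, *Pdk3* 0.21 and -0.21, and *Bnip3* 0.16 and -0.21, each from 1 probe set. The place of *Ldha* among the 4 rests on the scaling, since its ratio at E11.5, -0.12 beside a spread of 0.11, became -0.080 with quantile normalization and -0.063 with loess, both inside the spread. With the mean over all probe sets of a gene, neither *Aldoa* nor *Ldha* passed. *Ldha*, with 1 probe set, kept its ratio of -0.12 at E11.5, while the spread taken anew was 0.13. *Slc2a3*, whose mean takes in sets below the filter, passed under this setting. No gene of the list passed its spread in the reverse order or on the higher side at both stages, beside 3.1% and 2.72% of all genes. *Hk1*, at -0.29 and -0.18, passed its spread on the lower side at both stages, beside 2.86%. Median centring of the arrays, which shifts all ratios of a comparison alike, raised the count of genes higher at E12.5 and lower at E11.5 to 16 of 31 (51.6%) and the share of all genes to 44.4%. With both ratios past the spread it gave 10 of 31 (32.3%), beside 10.3% of all genes. Over the 31 genes the ratios of the 2 stages had a Pearson r of 0.08 and a Spearman rho of -0.06. Over all genes r was -0.01.

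**Figure D2:**
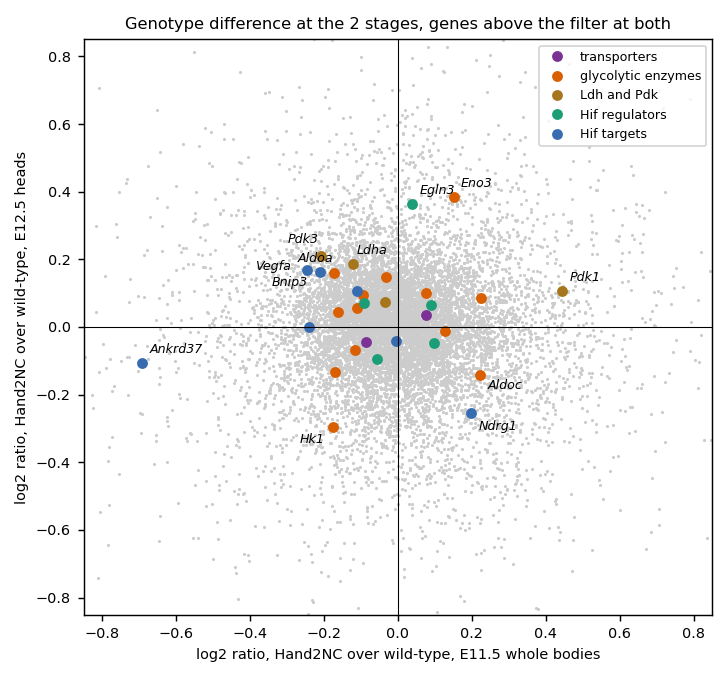
Each point is a gene above the signal filter at both stages, with the log2 ratio of *Hand2*NC over wild-type in E12.5 heads on the vertical axis and in E11.5 whole bodies on the horizontal axis. Grey points are all other genes, of which 122 lie outside the axes, and coloured points are the 31 genes of the list by role. The 12 genes of the upper left quadrant were higher at E12.5 and lower at E11.5.

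Between E12.5 heads and E11.5 whole bodies the isoenzymes parted. *Aldoc* and *Eno2* were higher in heads and *Eno3* lower, in both genotypes. These comparisons use the same arrays as those of genotype, and the *Hand2*NC arrays of the stages differed in Y-linked signal. In *Hand2*NC, 1 of 32 genes was higher past 2-fold and none lower, where 2.87% of 11991 genes were higher and 2.24% lower. In wild-type, 2 of 32 were higher and 1 lower past 2-fold, where 4.45% of 12060 genes were higher and 2.61% lower. At the smaller cutoff 9 of the 32 passed in *Hand2*NC and 12 in wild-type, where 36.6% and 42.7% of all genes did. Medians over the list were 0.05 in *Hand2*NC and -0.05 in wild-type, beside 0.04 and 0.03 over all genes.

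*Aldoc* had 1242 in *Hand2*NC heads and 1371 in wild-type heads, against 335 in *Hand2*NC bodies and 287 in wild-type bodies. Both E12.5 arrays thus lay above both E11.5 arrays, by 3.71-fold in *Hand2*NC (log2 1.89) and 4.77-fold in wild-type (log2 2.26). This value comes from 1 probe set. The second set of the gene had signals from 2.37 to 17.2, below the filter on all arrays, and the mean over both sets was -0.48 in *Hand2*NC. *Aldoa*, the aldolase shared by most tissues, had log2 ratios of 0.17 in *Hand2*NC and -0.17 in wild-type.

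Enolase split in a similar way. *Eno2* had 142 in *Hand2*NC heads and 146 in wild-type heads, against 86.6 in *Hand2*NC bodies and 39.4 in wild-type bodies. The log2 ratio was 0.71 in *Hand2*NC and 1.89 in wild-type, with local spreads of 0.81 and 0.92 at this dim level, and both E11.5 signals were below their array's median. Raising dim values to the array median brought the ratio in wild-type to 0.59, below 2-fold. *Eno3* had 518 in *Hand2*NC heads and 397 in wild-type heads, against 956 in *Hand2*NC bodies and 861 in wild-type bodies. It was lower in heads by 1.84-fold in *Hand2*NC (log2 -0.88) and 2.17-fold in wild-type (log2 -1.12).

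Tissue markers also differed between heads and bodies. The 10 neuron markers, all above the filter, were higher in heads in both genotypes, with a summed signal of 46632 in *Hand2*NC heads and 51710.1 in wild-type heads, against 27123 and 27354 in *Hand2*NC and wild-type bodies. The 10 skeletal muscle markers summed to 7620 and 7619 in *Hand2*NC and wild-type heads, against 12616 and 11355 in *Hand2*NC and wild-type bodies. The 11 heart muscle markers summed to 6940 and 6127 in *Hand2*NC and wild-type heads, against 26256 and 25474 in *Hand2*NC and wild-type bodies. Of 9 liver markers, 2 were above the filter in heads and 9 in bodies. Other genes of the list named for these tissues did not follow the markers. *Slc2a3*, typical of neurons, was lower in heads (log2 -0.51 in *Hand2*NC and -0.55 in wild-type). *Pfkm*, the muscle form of phosphofructokinase, was near equality (-0.02 and -0.06). The part of tissue make-up in the ratios of *Aldoc*, *Eno2* and *Eno3* was not tested.

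**Figure D3:**
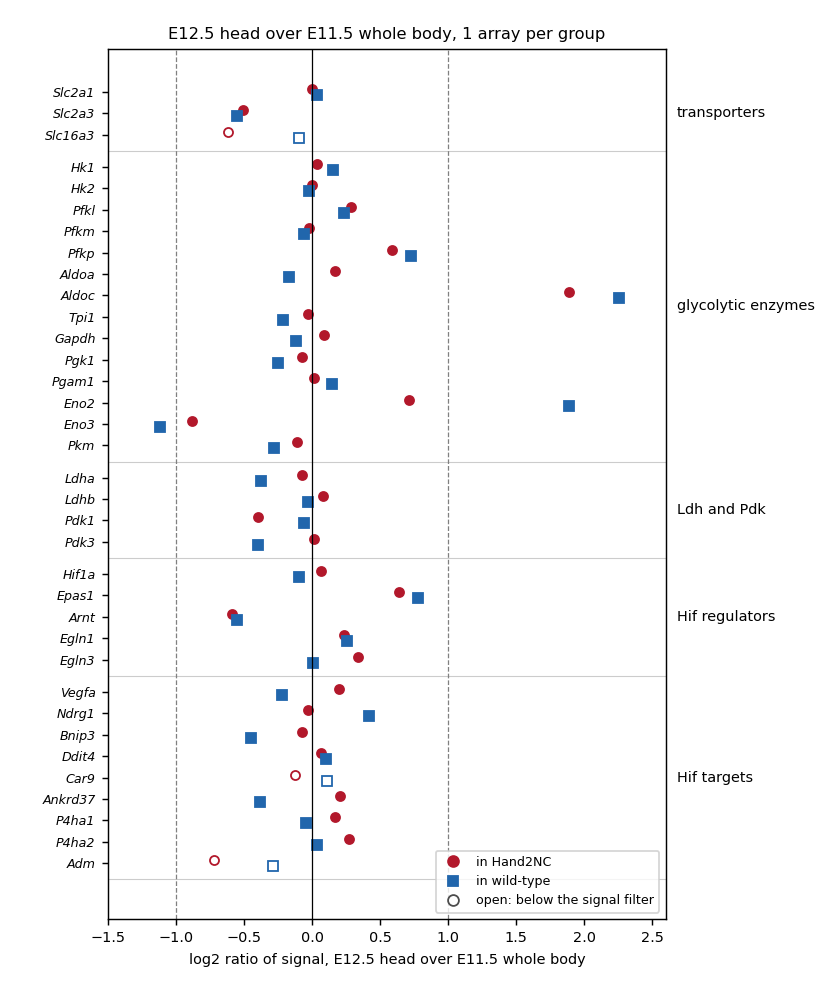
The log2 ratio of signal, E12.5 head over E11.5 whole body, for the 35 genes with a value, grouped by role, in *Hand2*NC (red circles) and wild-type (blue squares). Open symbols lie below the signal filter, and dashed lines mark 2-fold. *Aldoc* stands farthest to the right in both genotypes at 1.89 and 2.26, and *Eno3* farthest to the left at -0.88 and -1.12.

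Among the isoenzymes of phosphofructokinase, the committed step of glycolysis, only *Pfkp* passed its local spread between stages. *Pfkp*, the platelet form, had 574 in *Hand2*NC heads and 579 in wild-type heads, against 381 in *Hand2*NC bodies and 349 in wild-type bodies, with log2 ratios of 0.59 in *Hand2*NC and 0.73 in wild-type. A dimmer *Pfkp* set above the filter gave smaller ratios, 0.20 in *Hand2*NC and 0.42 in wild-type. The liver form *Pfkl* had ratios of 0.28 and 0.24, and the muscle form *Pfkm* -0.02 and -0.06. Another bright *Pfkl* set gave 0.19 in *Hand2*NC and -0.03 in wild-type. Among transporters, *Slc2a3* had 2369 in *Hand2*NC heads and 2443 in wild-type heads, against 3368 in *Hand2*NC bodies and 3577 in wild-type bodies (log2 -0.51 and -0.55). A second bright probe set of *Slc2a3* gave -0.40 and -0.70. *Slc2a1* differed by 0.00 in *Hand2*NC and 0.04 in wild-type.

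The alpha subunits of Hif parted too in the probe sets used. *Epas1* had 1278 in *Hand2*NC heads and 1319.9 in wild-type heads, against 821 in *Hand2*NC bodies and 768 in wild-type bodies, with log2 ratios of 0.64 and 0.78 past local spreads of 0.30 and 0.32. *Hif1a* had 7703 and 7336 in *Hand2*NC and wild-type heads, against 7379 and 7859 in *Hand2*NC and wild-type bodies. Its ratios were 0.06 in *Hand2*NC and -0.10 in wild-type. A second *Hif1a* set above the filter gave 0.08 in *Hand2*NC and 0.33 in wild-type, the direction of *Epas1* in both genotypes. *Arnt* had 681 and 727 in *Hand2*NC and wild-type heads, against 1027 and 1067 in *Hand2*NC and wild-type bodies, with ratios of -0.59 and -0.55. Another *Arnt* probe set above the filter gave 0.08 in *Hand2*NC and -0.04 in wild-type, so that the lower *Arnt* signal rests on 1 set. *Egln1* was higher by 0.23 in *Hand2*NC and 0.26 in wild-type, and its second set gave -0.40 and 0.07. *Egln3* had 0.33 in *Hand2*NC and 0.01 in wild-type.

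No Hif target above the filter passed 2-fold between the stages. The widest ratio among the 7 above the filter was that of *Bnip3* in wild-type, with 1895 in wild-type heads against 2584 in wild-type bodies (log2 -0.45). In *Hand2*NC its ratio was -0.07, from 2119 in heads against 2231 in bodies. *Vegfa* had 0.19 in *Hand2*NC and -0.22 in wild-type, and *Ldha*, which is also a Hif target, -0.07 and -0.38. *Ndrg1* had -0.03 and 0.42, with probe sets that did not share a sign. *Gapdh* had 0.09 and -0.12. The medians of the targets were 0.17 in *Hand2*NC and -0.05 in wild-type, those of the regulators 0.23 and 0.01 (-0.084 in *Hand2*NC with the mean over all probe sets of a gene), and those of the glycolytic enzymes 0.02 and -0.04.

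Over the list, both E12.5 arrays lay above both E11.5 arrays for 8 of 32 genes (*Pfkl*, *Pfkp*, *Aldoc*, *Eno2*, *Epas1*, *Egln1*, *Ddit4* and *P4ha2*), beside 39% of all genes. They lay below for another 8 (*Slc2a3*, *Tpi1*, *Pgk1*, *Eno3*, *Pkm*, *Ldha*, *Arnt* and *Bnip3*), beside 31.4%. Past 2-fold in both genotypes, *Aldoc* was higher (1.91% of all genes) and no gene of the list was lower (1.72% of all genes). Past the smaller cutoff in both genotypes, 4 genes were higher in heads (*Pfkp*, *Aldoc*, *Eno2* and *Epas1*; 15.2% of all genes) and 3 lower (*Slc2a3*, *Eno3* and *Arnt*; 9.19% of all genes).

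**Figure D4:**
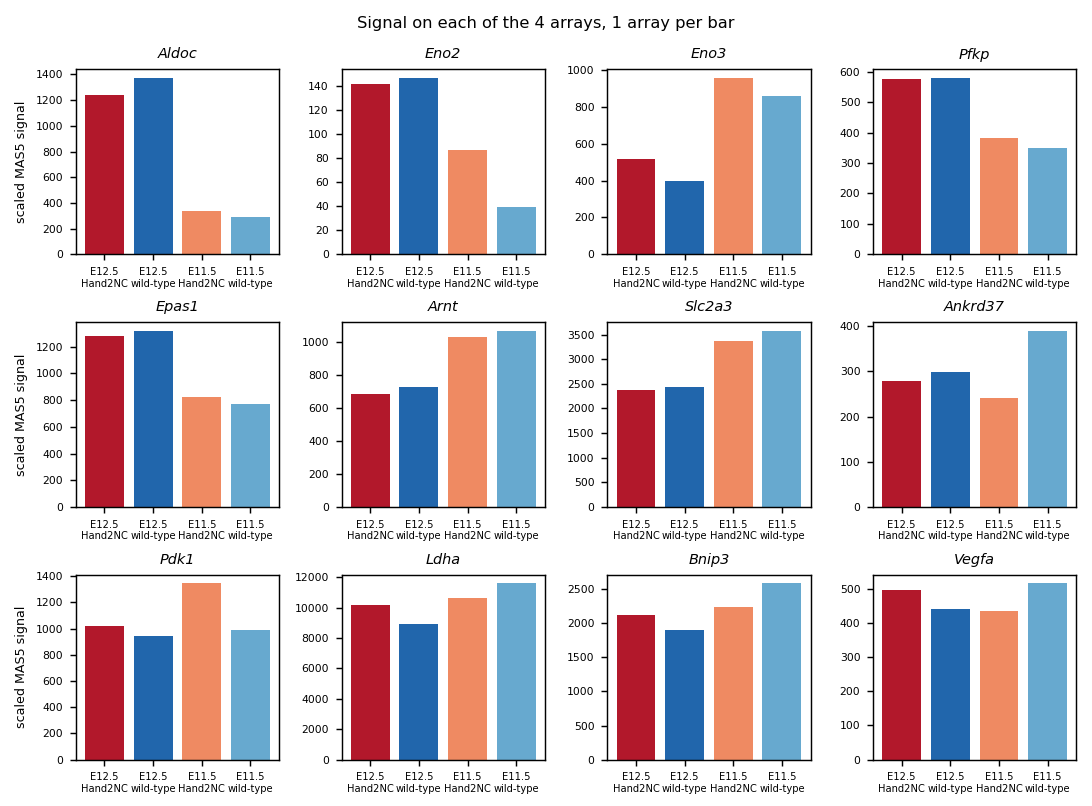
Scaled signal of 12 genes of the list on each of the 4 arrays, 1 array per bar, with linear axes from 0. *Aldoc*, *Eno2*, *Pfkp* and *Epas1* were higher on both E12.5 arrays than on both E11.5 arrays, *Eno3*, *Arnt* and *Slc2a3* lower, and *Ankrd37* was highest at 390.1 in wild-type bodies at E11.5.

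Other genes of the same pathways were read from longer lists. Of 21 further glycolysis genes with a value, 16 were above the filter between stages. Past 2-fold none was higher in heads, beside 1.91% of all genes in both genotypes. Lower in both genotypes were 3 of the 16 (18.8%), namely *Pgam2*, *Pklr* and *Slc2a2*, beside 1.72% of all genes. *Pgam2*, the phosphoglycerate mutase of muscle, had 178.5 in *Hand2*NC heads and 61.5 in wild-type heads, against 478 in *Hand2*NC bodies and 446.5 in wild-type bodies. *Pklr*, the pyruvate kinase of liver and red cells, had 37.9 and 26.1 in *Hand2*NC and wild-type heads, against 160 and 189 in *Hand2*NC and wild-type bodies. *Slc2a2*, the glucose transporter of liver, had 2.71 and 18.6 in *Hand2*NC and wild-type heads, against 103 and 99.8 in *Hand2*NC and wild-type bodies. The head signals of *Pklr* and *Slc2a2* were below their array medians, so that both genes passed the filter through the bodies alone. In wild-type this held for *Pgam2* too, with 61.5 in heads against an array median of 106. The count of 3 thus leans on a filter that the higher body signals met, and the size of these ratios is uncertain. Between genotypes at E12.5, 1 of the 14 further glycolysis genes above the filter passed 2-fold, beside 0.398% of all genes. It was *Pgam2* (log2 1.54), with 178.5 in *Hand2*NC against 61.5 in wild-type, and the wild-type signal was below its array median. At E11.5 no further glycolysis gene above the filter passed 2-fold, beside 0.446% of all genes.

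Of 26 further hypoxia genes with a value, none passed 2-fold between genotypes at either stage. Over all genes above the filter, 0.398% did at E12.5 and 0.446% at E11.5. Between stages, the transferrin receptor gene *Tfrc*, which serves iron uptake and is abundant in red cell precursors, was lower in heads by log2 -0.95 in *Hand2*NC and -1.23 in wild-type. Past the smaller cutoff in both genotypes, 3 of the 25 above the filter (12%) were higher in heads, namely *Arnt2*, *Mxi1* and *Lox*, beside 15.2% of all genes. Another 3 (12%) were lower, namely *Tfrc*, *Plin2* and *Car12*, beside 9.19% of all genes. *Arnt2*, the *Arnt* paralogue of brain, had 2452 in *Hand2*NC heads and 2269.9 in wild-type heads, against 1444 in *Hand2*NC bodies and 1506 in wild-type bodies.

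Several probe sets of a gene were the repeat reading these arrays held. Between genotypes at E12.5, 14 of 24 other probe sets above the filter had the sign of the one used, and at E11.5 17 of 27. Between stages these counts were 14 of 25 in *Hand2*NC and 20 of 27 in wild-type. The median range of the log2 ratio over a gene's probe sets was 0.21 at E12.5 and 0.17 at E11.5 between genotypes, and 0.28 in *Hand2*NC and 0.23 in wild-type between stages.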

How the data were processed

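The authors deposited an untransformed intensity, the MAS5 signal, for 45101 probe sets on each of 4 arrays. MAS5 is named without a version in the submitters' processing notes, and pooled RNA made 1 array per group. Control probe sets (64) were left out, except for *Gapdh*, which has no other. Signals were multiplied so that the 2% trimmed mean of an array came to 500, and converted to log2. Of 45037 other probe sets, 34945 had 1 gene symbol, 932 several and 9160 none in the platform annotation. Where several single-symbol probe sets were present, a gene took the one brightest on average (log2, 4 arrays), which for 16 of the 35 genes with a value has an ID ending in _x_at, _s_at or _a_at. A gene was kept where the brighter array of a comparison reached its median (50th percentile), and was counted at 2-fold or at a smaller cutoff, a log2 ratio of 0.32. The number of arrays limits the precision. All array columns matched a sample (0 left over).

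Named with signals were genes past 2-fold, the 3 highest and 3 lowest ratios of each comparison, 9 members of known role (*Hif1a*, *Epas1*, *Arnt*, *Egln1*, *Egln3*, *Vegfa*, *Slc2a1*, *Gapdh* and *Ldha*) and further pathway genes past 2-fold, and others were chosen after their values were seen. The gene list, pathway lists and markers were chosen with earlier results of these data known. Alternatives covered scaling (unscaled, median centring, quantile, loess with span 0.3), the filter (none, both arrays, 75th percentile, dim values raised), the probe set (mean over sets, any set, sets with such IDs left out) and the cutoff. How many genes were higher at E12.5 and lower at E11.5, at any size and past the local spread taken anew, was recomputed under these after the data were seen. The counting was tested on simulated data. Promoters were RefSeq windows (GRCm38.p6). Python 3.11.15, numpy 2.4.6, pandas 2.3.3, statsmodels 0.14.6 and matplotlib 3.10.9 were used.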

Additional observations from a re-analysis of the deposited data

Results flagged for a closer look

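For 4 of 31 genes of the list (12.9%) the genotype ratio ran one way at E12.5 and the other way at E11.5. All 4 were higher in *Hand2*NC at E12.5 and lower at E11.5, each beyond the local spread of genes of like signal. Of all genes, 3.54% had this order and 3.1% the reverse order, which no gene of the list had. Either order would have been flagged. The difference between the stages was not tested, since each group has 1 array. The log2 ratio of *Hand2*NC over wild-type at E12.5 minus that at E11.5 was 0.33 for *Aldoa*, 0.31 for *Ldha*, 0.42 for *Pdk3* and 0.37 for *Bnip3*. *Pdk3* lies on the X chromosome, and the *Hand2*NC array at E12.5 had a summed Y-linked signal of 25.1 against 2035 in wild-type. The part of this in the value was not tested. The call of *Ldha* rests on the scaling, with a ratio at E11.5 of -0.12 beside a spread of 0.11 that became -0.080 with quantile normalization and -0.063 with loess, inside the spread. With the mean over probe sets *Aldoa* and *Ldha* no longer passed, and *Pdk3*, *Bnip3* and also *Slc2a3* did. For *Ldha*, which has 1 probe set, only the spread at E11.5 changed, to 0.13.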

How the results depend on the processing

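Under the alternatives, 502 of 532 values of named genes, 157 of 160 list medians and 39 of 48 counts stayed close, while 28 values of named genes moved and 2 turned sign. Both turned values belong to *Aldoc*, E12.5 head over E11.5 whole body in *Hand2*NC: -0.48 as the mean over probe sets and -2.86 with sets of ambiguous ID left out, where its dim second set enters or stands alone. Counts of genes past 2-fold between genotypes (0 at each stage) became 2 at E12.5 and 2 at E11.5 at the smaller cutoff, 1 at E12.5 and 1 at E11.5 with the mean over probe sets, and 1 at E11.5 with no filter. Between stages, the counts (1 in *Hand2*NC, 3 in wild-type) became 9 in *Hand2*NC and 12 in wild-type at the smaller cutoff, and 0 in *Hand2*NC and 1 in wild-type with ambiguous sets left out. With the mean over probe sets, which takes in sets below the filter, the median of Hif regulators became -0.21 between genotypes at E12.5. Between stages in *Hand2*NC it became -0.084, and that of glycolytic enzymes between genotypes at E11.5 became 0.076. Median centring shifted the median of all genes between stages in wild-type by -0.12, from array medians of 106 in wild-type heads and 97.2 in wild-type bodies. The share of the list higher in *Hand2*NC at E12.5 and lower at E11.5 ran between 34.3% with no filter and 51.6% with median centring. Median centring raised the share of all genes too. The number with both ratios past the local spread was 4 of 31, beside 3.54% of all genes. It became 10 of 31 with median centring, beside 10.3% of all genes. With ambiguous sets left out, where *Aldoa* and *Ldha* have no probe set, it became 2 of 21, beside 3.31%. The cause of the other shifts was not tested. No paired analysis was possible because each group has 1 array, and no array could be left out. Signal near background limits *Slc16a3*, *Car9*, *Adm* and *Eno2*.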
